A study of Mus musculus with 23 samples.

Results

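The comparison described here is between the quadriceps of mice with KPC tumors and of mice with KPC IL6KO tumors, and it asks which muscle transcripts depend on IL-6 made by the tumor cells. It holds 8 of the 23 samples of the series, chosen by their labels: 4 quadriceps named KPC and 4 named KPC IL6KO. The hosts were male C57BL/6J mice, 8 weeks old at surgery and older when the muscle was taken, whose own Il6 gene was not edited. KPC mice carried, in the pancreas, a clone of a cell line from a tumor of the KPC model (a genetic mouse model of pancreatic cancer driven by Pdx1-Cre) that had been transfected with a CRISPR/Cas9 plasmid lacking a guide, and KPC IL6KO mice carried a clone of the same line edited in Il6. Each tumor line was 1 clone, so clone and Il6 genotype cannot be told apart in these samples. The paper reports larger tumors in KPC than in KPC IL6KO mice, and no correlation of tumor mass with quadriceps mass. Tumor size therefore also differs between the groups and cannot be told apart from Il6 genotype here. Host cells in and around either tumor can still make IL-6. All mice were killed at the same time, when the KPC group was overtly wasted. The 3 quadriceps from mice that had surgery but no tumor are given beside the comparison as a reference level. The authors had left a further no tumor muscle out of their analysis as an outlier, and it is not analysed here. All quadriceps RNA was isolated and sequenced together.

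IL-6 binds its receptor IL6RA on a cell, or a soluble form of it, and the pair engages gp130 (Il6st), which activates JAK kinases and the transcription factor STAT3. STAT3 then raises its own feedback inhibitor SOCS3, acute phase proteins and other targets. Muscle that wastes is known to break down its contractile proteins through the ubiquitin-proteasome system and autophagy, under control of FoxO factors, glucocorticoids and myostatin-family ligands. The count table has no row for Il6, which was not analysed here.

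The table held fragment counts for 12831 genes, and CPM (counts scaled to library size) are TMM-scaled throughout. Totals ran from 54968680 to 74907810 counts in KPC, 50003124 to 62832136 in KPC IL6KO and 19259763 to 53188659 in no tumor. A count of 3 corresponds to 0.0462 to 0.154 CPM. The 10 most abundant genes took 19.72 to 22.95% of the counts in KPC libraries and 27.9 to 29.7% in KPC IL6KO libraries. The 10 myofiber markers were all in the table and summed to 130227 to 156550.0 CPM in KPC, 197838 to 215439 CPM in KPC IL6KO and 172999 to 214064 CPM in no tumor, so the tissue was muscle in each library. A gene is called changed at a false discovery rate (FDR, edgeR quasi-likelihood test, Benjamini-Hochberg over all genes) of at most 0.05 and a fold change (FC) of at least 1.5. The log2 FC is KPC minus KPC IL6KO, and "rose" and "fell" refer to KPC against KPC IL6KO.

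Of the 12831 genes, 53.6% were called, 26.4% as higher in KPC and 27.3% as lower. At an FC of at least 4, 428 genes were higher and 620 lower, and at an FC of at least 16 the counts were 46 and 59. The 4 KPC values lay entirely above the 4 KPC IL6KO values for 31.2% of genes and entirely below them for 30.8%. The called genes carried a large part of the RNA: those that rose made up 39.6% of the CPM in KPC, 16.5% in KPC IL6KO and 15.9% in no tumor, and those that fell made up 11.6%, 28.8% and 29.5%. Without TMM the median log2 FC over all genes moved from -0.01 to -0.14, and 2842 genes were called higher and 3984 lower, so that the higher share of the calls was 41.6% in place of 49.2%.

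**Figure D1:**
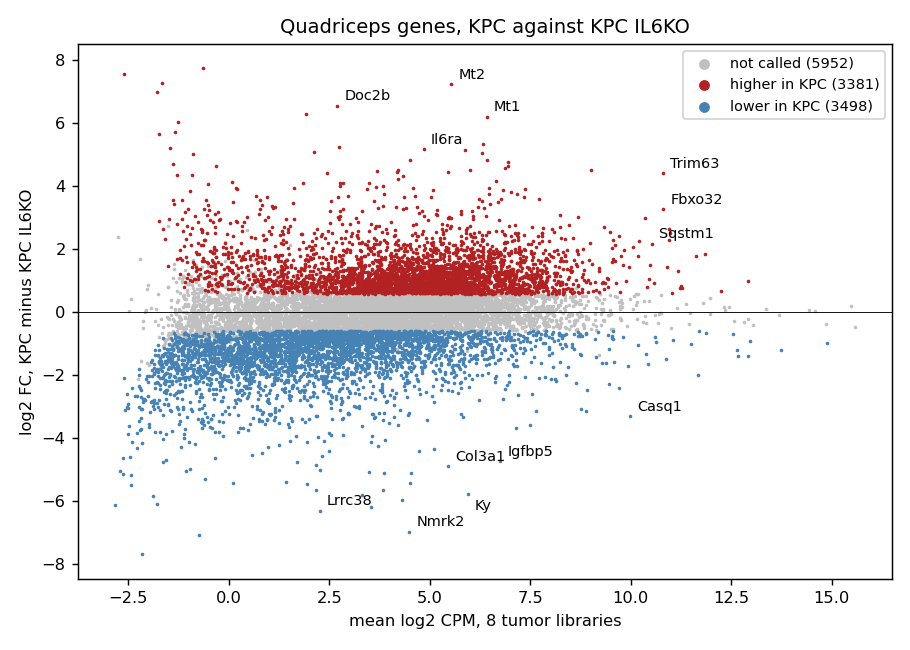
Log2 FC of KPC minus KPC IL6KO (y axis) against mean log2 CPM over the 8 tumor libraries (x axis), 1 point per gene, colored by call. The 3381 genes called higher and 3498 called lower lie on both sides of 0, with the metallothioneins Mt2 and Mt1 and the ligase Trim63 among the highest rises.

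The direction of the calls followed abundance. In 5 equal bins of genes, from the least to the most abundant, the share called higher was 11.1, 16.4, 26.7, 34.6 and 42.9%, and the share called lower was 45.5, 37.6, 24.5, 15.2 and 13.5%. Abundance was taken over the same 8 libraries that gave the calls, so these shares are a description.

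**Figure D2:**
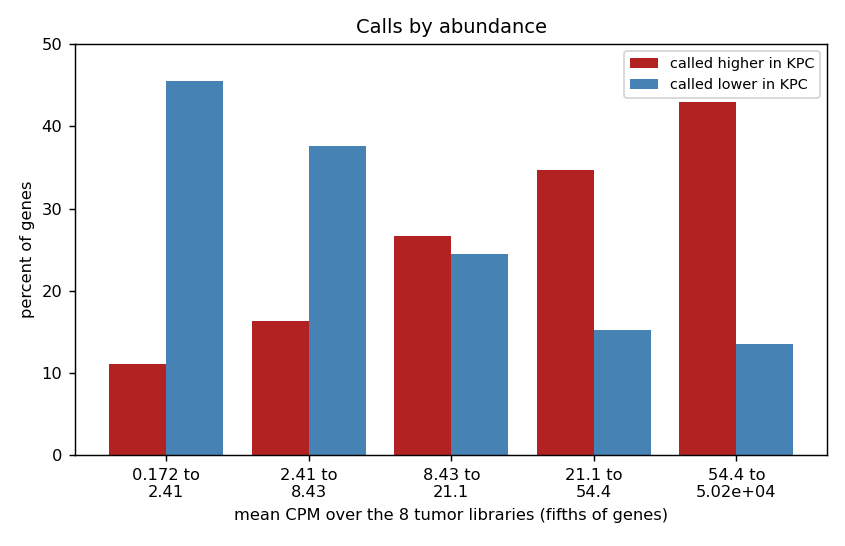
Percent of genes called higher (red bars) and lower (blue bars) in KPC, in 5 equal bins of genes by mean CPM over the 8 tumor libraries. Higher calls go from 11.1% in the lowest bin to 42.9% in the highest, and lower calls from 45.5% to 13.5%.

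The level in mice without tumors was set beside both tumor groups. For 55.4% of the genes that rose and 59.6% of those that fell, the no tumor mean was inside the range of the 4 KPC IL6KO libraries, against 57.1% of all genes. For 5.15% and 2.37% it was inside the KPC range, against 23.9% of all genes. The KPC mice also differed more from each other. The median SD of log2 CPM over genes was 0.323 in KPC, 0.138 in KPC IL6KO and 0.126 in no tumor, the last without the muscle left out as an outlier. KPC 2 departed least from KPC IL6KO, being the weakest of the 4 for 2102 of the 3381 genes that rose and 1871 of the 3498 that fell. Its median log2 difference from the KPC IL6KO mean was 0.81 over the genes that rose, against 1.04 to 1.24 in the other KPC mice.

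Of the IL-6 receptor complex and JAK-STAT3 pathway, 10 of the 28 members in the table rose and 6 fell, with a median log2 FC of 0.50. Over all genes 26.4% rose and 27.3% fell, with a median of -0.01. Il6ra (mm10 chromosome 3, 89864059 to 89913196, minus strand) was at 264, 125, 155 and 181 CPM in KPC 1 to 4 and 3.92, 3.03, 7.1 and 5.99 CPM in KPC IL6KO 1 to 4, so all KPC mice lay far above all KPC IL6KO mice (log2 FC 5.18 ± 0.32 (SE), FDR 6.72e-07). The no tumor mice were at 4.19, 5.37 and 5.23 CPM, close to KPC IL6KO. Its signaling partner Il6st did not pass the test, with 199, 302, 319.9 and 202 CPM in KPC 1 to 4 and 199.7, 169, 240.5 and 202 CPM in KPC IL6KO 1 to 4 and overlapping groups (log2 FC 0.33 ± 0.17 (SE), FDR 0.0993).

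Downstream of the receptor, Stat3 was at 147, 76.9, 119 and 100.2 CPM in KPC 1 to 4 and 63.9, 58.7, 77.8 and 60.1 CPM in KPC IL6KO 1 to 4 (log2 FC 0.76 ± 0.18 (SE), FDR 0.00228), and KPC 2 was just below the highest KPC IL6KO mouse. Socs3, the feedback inhibitor, did not pass the test: 13.4, 5.03, 5.53 and 8.3 CPM in KPC 1 to 4 and 12.8, 4.09, 4.63 and 4.44 CPM in KPC IL6KO 1 to 4 (log2 FC 0.32 ± 0.41 (SE), FDR 0.511). The KPC IL6KO 1 value was well above the other 3 of its group, and without that mouse Socs3 was called (log2 FC 0.88, FDR 0.0399). Cebpd, a transcription factor of the acute phase response, rose from 15.7, 9.92, 34 and 43.8 CPM in KPC IL6KO 1 to 4 to 654, 386, 316 and 513 CPM in KPC 1 to 4 (log2 FC 4.17 ± 0.48 (SE), FDR 1.76e-05). The immediate early gene Junb rose with a log2 FC of 3.65, Cebpb with 2.07, Myc with 2.05 and the kinase Pim1 with 1.37. Junb was at 2.38 without KPC 1, and Pim1 was not called without KPC 3 (0.70, FDR 0.057). Among the members that fell were the kinases Jak2 (-0.87) and Tyk2 (-0.95), and the inhibitor Socs1 (log2 FC -3.45 ± 0.85 (SE), FDR 0.00351). Socs1 was low in KPC, at 0.154, 0.103, 0.131 and 0.226 CPM, and was at 5.22, 0.596, 0.393 and 0.617 CPM in KPC IL6KO. Without KPC IL6KO 1 its log2 FC was -1.79.

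Acute phase and innate defence proteins are made mainly by the liver under IL-6, and some by muscle. Here 8 of the 16 members in the table rose and 1 fell, with a median log2 FC of 1.21. The rise was uneven. The list median of the log2 difference from the KPC IL6KO mean was 1.64, 1.12, 0.59 and 0.30 in KPC 1 to 4. It was 0.20, -0.60, 0.17 and 0.26 in KPC IL6KO 1 to 4. In no tumor 1 to 3 it was 0.18, 0.66 and 0.24, so KPC 3 and KPC 4 lay below the highest no tumor mouse. Lcn2, an iron-siderophore binding protein, was at 62.8, 15.4, 105 and 34.7 CPM in KPC 1 to 4 and 0.512, 0.403, 3.4 and 1.39 CPM in KPC IL6KO 1 to 4 (log2 FC 5.23 ± 0.73 (SE), FDR 6.98e-05), and without KPC IL6KO 3 its log2 FC was 6.13. Serpina3n, a protease inhibitor, rose with a log2 FC of 3.91 (3.31 without KPC 1) and haptoglobin (Hp) with 2.92. The complement component C3 had the highest CPM of the list and did not pass the test, with a log2 FC of -0.01 and values of 167, 167, 44.3 and 35.2 CPM in KPC 1 to 4 and 117, 62, 86.5 and 152 CPM in KPC IL6KO 1 to 4. The pentraxin Ptx3 fell (log2 FC -3.18 ± 0.37 (SE), FDR 1.82e-05).

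Markers of liver, fat, blood and epithelium are given beside this list. Of the 14 hepatocyte markers, 3 were in the table, and they summed to 37.2 to 303 CPM in KPC, 10.7 to 80.3 CPM in KPC IL6KO and 40.2 to 210.3 CPM in no tumor. Cyp2e1, which was not called, made up most of the sum in the KPC IL6KO mice and in KPC 1 to 3, and the other 2 rose (median log2 FC of the 3 genes 5.22). Albumin (Alb) was at 1.03, 1.08, 0.655 and 97.3 CPM in KPC 1 to 4 and 0.236, 0.0351, 0.0944 and 0.103 CPM in KPC IL6KO 1 to 4, so every KPC mouse was above every KPC IL6KO mouse and KPC 4 was by far the highest (log2 FC 7.74 ± 1.87 (SE), FDR 0.00305; 2.98 without KPC 4). The apolipoprotein Apoc3 was at 0.847, 1.27, 1.23 and 4.82 CPM in KPC 1 to 4 and 0.0788, 0, 0.0787 and 0.0514 CPM in KPC IL6KO 1 to 4 (log2 FC 5.22 ± 0.72 (SE), FDR 6.74e-05; 4.35 without KPC 4). Hp was at 196, 178, 62.9 and 16.3 CPM in KPC 1 to 4. The 7 adipocyte markers, none of them called, summed to 839, 1646, 247 and 128 CPM in the same mice. In KPC IL6KO 1 to 4 they summed to 602, 188, 445 and 326 CPM. Of the 10 neutrophil markers 4 were in the table and 3 rose, and they summed to 4.5 to 21.8 CPM in KPC, 2.14 to 4.13 CPM in KPC IL6KO and 0.359 to 0.779 CPM in no tumor. Of the 7 epithelial markers, which tumor cells can carry, 3 were in the table and 2 rose (median log2 FC 2.53). Krt18 was at 7.7, 0.462, 1.1 and 4.84 CPM in KPC 1 to 4 and 0.236, 0.123, 0.346 and 0.12 CPM in KPC IL6KO 1 to 4 (log2 FC 4.07 ± 0.98 (SE), FDR 0.00298; 3.34 without KPC 1), and Krt19 (log2 FC 2.53 ± 0.89 (SE), FDR 0.0242) was not called without KPC 1 (1.27) or without KPC IL6KO 1, 3 or 4 (2.33 to 2.47). All genes of the table passed the low-count filter, and most hepatocyte, neutrophil and epithelial markers have no row. A marker that is very low in the other groups, such as Alb or Apoc3, could hold a row only through KPC. The counts of these markers that rose are therefore a description. The part of these transcripts in the acute phase result was not tested.

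Metallothioneins bind zinc and copper and are induced by metals, glucocorticoids and IL-6. Of the metallothionein and zinc transport list, 6 of the 18 members in the table rose (33.3%) and 4 fell (22.2%), with a median log2 FC of 0.18. These shares were near the 26.4% and 27.3% of all genes, so the genes named next do not stand for the list. Mt2 (chromosome 8, 94172664 to 94173568, plus strand) was at 963, 154, 922 and 551 CPM in KPC 1 to 4 and 3.01, 2.91, 5.48 and 5.66 CPM in KPC IL6KO 1 to 4; KPC 2 was the lowest of its group and was still above every KPC IL6KO mouse (log2 FC 7.24 ± 0.63 (SE), FDR 3.26e-06). Its neighbor Mt1 (chromosome 8, 94179082 to 94180327, plus strand) was at 1119.9, 252, 1129.9 and 728 CPM in KPC 1 to 4 and 8.04, 7.66, 15.9 and 12.2 CPM in KPC IL6KO 1 to 4, with KPC 2 again the lowest of its group (log2 FC 6.20 ± 0.49 (SE), FDR 1.91e-06). The zinc importer Slc39a14 was at 529, 285, 432 and 625 CPM in KPC 1 to 4 and 15.3, 16, 16.3 and 18.6 CPM in KPC IL6KO 1 to 4, with no overlap (log2 FC 4.82 ± 0.23 (SE), FDR 1.98e-07). Mt3 (0.38), the metal sensor Mtf1 (-0.27) and the exporter Slc30a1 (0.27) did not pass the test. The zinc importer Slc39a1 fell (log2 FC -1.13 ± 0.12 (SE), FDR 9.29e-06). Mt1 and Mt2 are similar in sequence, and reads that fit both may be lost or split.

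The promoters of 5 genes described here were picked to be shown because they hold letters that a STAT, metal, glucocorticoid, FoxO or E box factor could read, from 250 bases before to 50 bases after the RefSeq start (GRCm38.p6). Capitals mark the matches on either strand to TTCNNNGAA (STAT), TGCGCNC or TGCACNC (metal response), GNACA and TGTNC with 3 bases between them (glucocorticoid response), GTAAACA (FOXO) and CACGTG (E box).
Mt2 (+ strand, chr8:94172368-94172667): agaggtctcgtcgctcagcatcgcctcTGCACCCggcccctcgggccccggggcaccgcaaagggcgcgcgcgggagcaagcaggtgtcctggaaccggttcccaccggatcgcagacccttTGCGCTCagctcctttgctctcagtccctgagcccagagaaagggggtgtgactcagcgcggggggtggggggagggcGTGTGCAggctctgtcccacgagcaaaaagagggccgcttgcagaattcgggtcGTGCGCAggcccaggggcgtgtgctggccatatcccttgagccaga
Mt1 (+ strand, chr8:94178839-94179138): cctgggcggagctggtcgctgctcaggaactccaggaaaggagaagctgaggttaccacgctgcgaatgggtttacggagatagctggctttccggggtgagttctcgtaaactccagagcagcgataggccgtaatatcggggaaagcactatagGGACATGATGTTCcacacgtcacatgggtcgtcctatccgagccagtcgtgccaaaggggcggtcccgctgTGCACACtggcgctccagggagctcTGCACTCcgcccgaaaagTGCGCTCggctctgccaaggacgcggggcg
Trim63 (+ strand, chr4:134314870-134315169): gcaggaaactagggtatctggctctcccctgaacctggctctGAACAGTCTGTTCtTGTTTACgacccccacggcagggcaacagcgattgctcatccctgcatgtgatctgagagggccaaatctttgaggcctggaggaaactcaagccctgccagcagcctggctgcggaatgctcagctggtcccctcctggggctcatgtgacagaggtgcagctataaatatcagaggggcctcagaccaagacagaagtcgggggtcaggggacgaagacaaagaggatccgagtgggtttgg
Socs3 (- strand, chr11:117969317-117969616): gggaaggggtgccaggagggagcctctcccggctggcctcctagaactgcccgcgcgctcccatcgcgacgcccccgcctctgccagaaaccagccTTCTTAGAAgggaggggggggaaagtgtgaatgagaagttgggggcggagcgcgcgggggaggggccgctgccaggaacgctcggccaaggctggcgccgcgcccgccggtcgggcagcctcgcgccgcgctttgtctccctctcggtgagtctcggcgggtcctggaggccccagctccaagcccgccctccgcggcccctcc
Il6ra (- strand, chr3:89913147-89913446): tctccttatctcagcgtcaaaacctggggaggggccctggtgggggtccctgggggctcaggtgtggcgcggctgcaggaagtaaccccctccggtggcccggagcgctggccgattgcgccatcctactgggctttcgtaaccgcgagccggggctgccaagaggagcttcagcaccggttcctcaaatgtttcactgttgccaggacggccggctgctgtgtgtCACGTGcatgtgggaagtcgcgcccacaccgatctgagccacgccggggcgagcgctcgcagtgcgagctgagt
The Mt2 promoter held 4 metal response matches, 223, 128 and 50 bases before the start and 4 after it. Mt1 held 3 of them, 23 bases before and 2 and 20 after the start, beside a glucocorticoid match that begins 94 bases before it. Trim63 held a glucocorticoid match 208 bases before the start, next to a FOXO match at 194. Socs3 held a STAT match 154 bases before the start and Il6ra an E box 24 bases before it. The STAT letters were in 6.73% of promoters of genes that rose, 6.92% of those that fell and 6.82% of the 10069 promoters of genes in the count table. The metal letters were in 36.5, 35.8 and 36.5%, the glucocorticoid letters in 0.333, 0.263 and 0.348%, and the FOXO letters in 2.59, 2.29 and 2.50%. The E box was in 12.5% of promoters of genes that rose, 7.82% of those that fell, 10.8% of those not called and 10.5% of all in the count table. For each gene symbol, only the first promoter listed by RefSeq was searched. Over the 27025 such promoters the shares were 8.47% (STAT), 25.6% (metal), 0.463% (glucocorticoid), 3.55% (FOXO) and 7.24% (E box). They include genes not expressed in this muscle. Lcn2, Fam65c and Ampd3, which are among the leading rises, held no match to any of these letters in the promoter searched. Ampd3 has 3 promoter entries, and the others were not searched. A match is a run of letters and not a site shown to be bound.

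Muscle protein is broken down mainly by the ubiquitin-proteasome system, in which E3 ligases such as MuRF1 (Trim63) and atrogin-1 (Fbxo32) mark contractile proteins. Of the ubiquitin ligase list, 15 of the 27 members in the table rose and 4 fell, with a median log2 FC of 0.91. Trim63 (chromosome 4, 134315120 to 134329629, plus strand) was at 11211, 6917, 7307 and 8699 CPM in KPC 1 to 4 and 282, 293, 637 and 401 CPM in KPC IL6KO 1 to 4, with every KPC mouse above every KPC IL6KO mouse (log2 FC 4.40 ± 0.32 (SE), FDR 1.25e-06). Fbxo32 (chromosome 15, 58175879 to 58214932, minus strand) was at 7739, 5219, 5577 and 5144 CPM in KPC 1 to 4 and 332, 383, 1081 and 676 CPM in KPC IL6KO 1 to 4, again with no overlap (log2 FC 3.26 ± 0.36 (SE), FDR 1.27e-05). The no tumor mice were at 217, 210.3 and 349 CPM for Trim63 and 177, 146 and 226 CPM for Fbxo32, below the KPC IL6KO means of 403 and 618 CPM. The ubiquitin gene Ubb rose (2.55), as did Fbxo30 (1.97), Fbxo31 (2.00) and Cblb (1.25), while Trim32 (-1.40) and the Z-disc ligase component Fbxl22 (-2.16) fell.

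Of the proteasome subunits, 34 of the 40 members in the table rose and 1 fell, with a median log2 FC of 1.65. The median difference from the KPC IL6KO mean on the log2 scale was 1.70, 1.39, 1.99 and 1.37 in KPC 1 to 4. The regulatory particle ATPase Psmc4 was at 551, 396, 773 and 370.2 CPM in KPC 1 to 4 and 97, 95.6, 107 and 94.5 CPM in KPC IL6KO 1 to 4 (log2 FC 2.41 ± 0.21 (SE), FDR 2.94e-06), and Psmd2, the subunit with the highest CPM, at 1713, 1213, 2142 and 1074 CPM in KPC 1 to 4 and 328, 314, 461 and 387 CPM in KPC IL6KO 1 to 4 (log2 FC 2.04 ± 0.22 (SE), FDR 1.02e-05). The exception was Psme1, a subunit of the interferon-inducible PA28 cap, which fell from 42.9, 42.8, 38.3 and 37 CPM in KPC IL6KO to 13.1, 18.8, 13.2 and 18.1 CPM in KPC (log2 FC -1.35 ± 0.13 (SE), FDR 6.61e-06). The 3 immunoproteasome subunits, listed here with antigen presentation, also fell: Psmb8 (-1.52), Psmb9 (-2.21) and Psmb10 (-1.56). Without KPC 2, Psmb8 was at -2.14 and Psmb9 at -3.09.

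Autophagy and lysosome genes deliver organelles and protein aggregates for degradation, and 27 of the 41 members in the table rose and 2 fell, with a median log2 FC of 1.02. The mitophagy receptor Bnip3 was at 1675, 838, 1108 and 1163 CPM in KPC 1 to 4 and 129.7, 128, 168 and 165 CPM in KPC IL6KO 1 to 4 (log2 FC 3.02 ± 0.20 (SE), FDR 9.31e-07), with the KPC mice spread but above the others. The cargo adaptor Sqstm1, the member with the highest CPM, was at 3506, 2743, 3709 and 2797 CPM in KPC 1 to 4 and 599.6, 594, 918 and 704 CPM in KPC IL6KO 1 to 4 (log2 FC 2.18 ± 0.18 (SE), FDR 2.15e-06). Gabarapl1 (2.78), Map1lc3b (1.97), the lysosomal protease Ctsl (2.56) and the lysosomal regulator Tfeb (1.02) rose. Ulk2 (-0.78) and Atg10 (-0.74) fell.

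**Figure D3:**
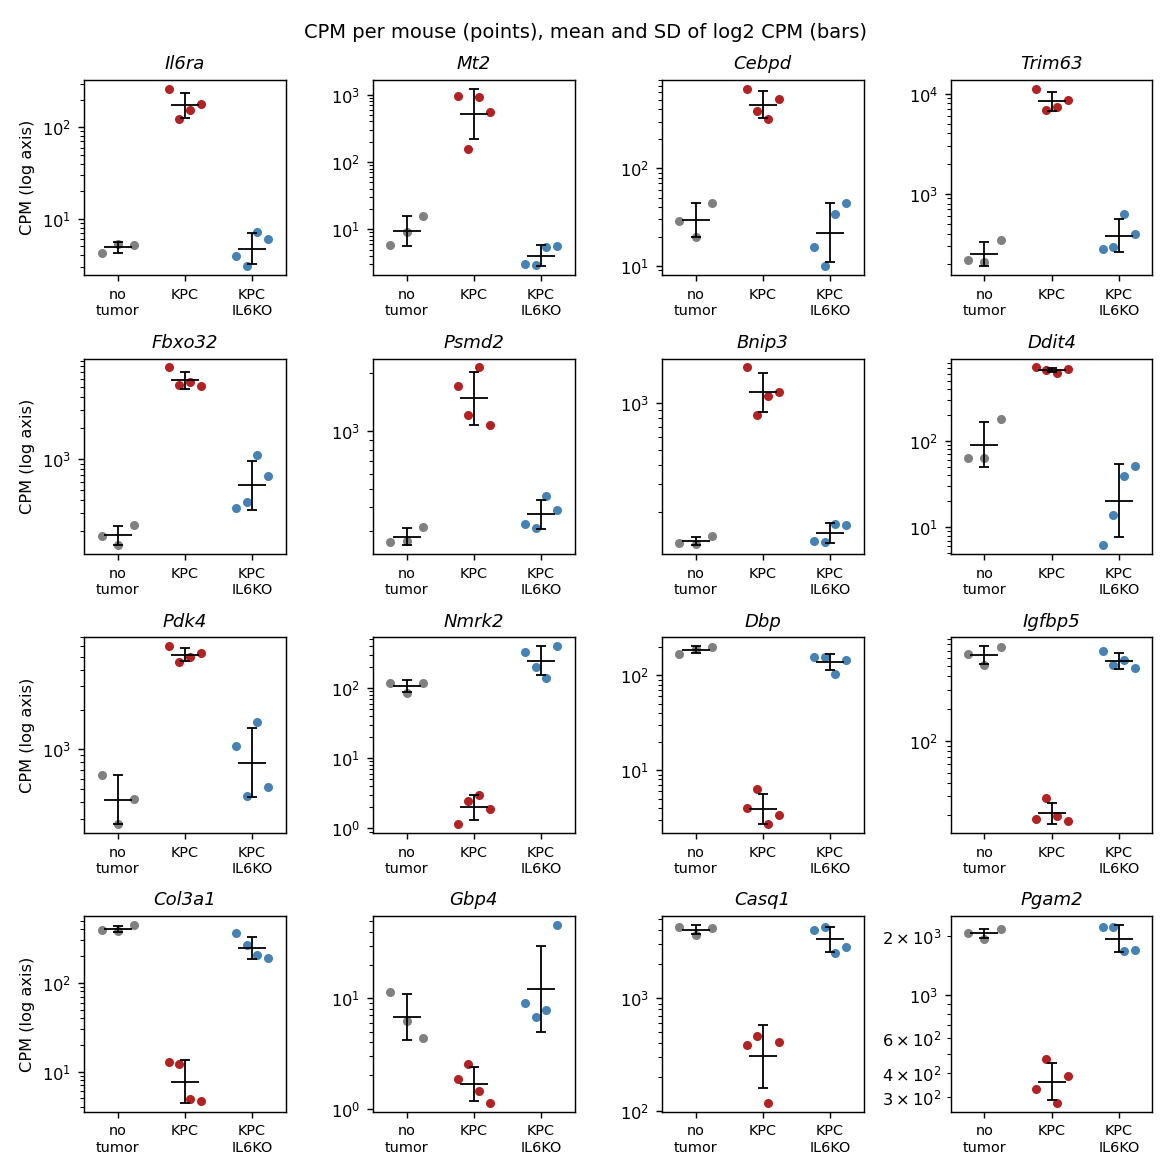
CPM per mouse on a log axis for 16 genes, with points for single mice of the no tumor (gray), KPC (red) and KPC IL6KO (blue) groups and bars for the mean and SD of log2 CPM. For Il6ra, Trim63 and Fbxo32 every KPC point lies above every KPC IL6KO point, and for Nmrk2, Dbp and Col3a1 every KPC point lies below.

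FoxO factors and insulin signaling set the balance of muscle protein synthesis and loss. In this list, 11 of the 25 members in the table rose and 6 fell, with a median log2 FC of 0.32. Foxo1 (3.21) and Foxo3 (1.91) rose, and their relative Foxo6 fell (-4.47). The PI3-kinase subunit Pik3r1 was at 568, 134, 284 and 155 CPM in KPC 1 to 4 and 26, 23.1, 27.2 and 37.8 CPM in KPC IL6KO 1 to 4 (log2 FC 3.32 ± 0.41 (SE), FDR 3.19e-05). The insulin receptor substrates went opposite ways, with Irs2 rising (log2 FC 2.36 ± 0.36 (SE), FDR 0.000146) and Irs1 falling (log2 FC -1.65 ± 0.30 (SE), FDR 0.000419). The IGF-binding protein Igfbp5 was at 18.6, 29.1, 19.6 and 17.6 CPM in KPC 1 to 4 and 696, 511, 572 and 481 CPM in KPC IL6KO 1 to 4, lower in every KPC mouse (log2 FC -4.73 ± 0.22 (SE), FDR 1.7e-07). Igf1, the anabolic ligand, fell (-1.12), but was not called without KPC IL6KO 1 (-1.01, FDR 0.0547). The glucose transporter Slc2a4 did not pass the test (log2 FC 0.11 ± 0.23 (SE), FDR 0.695).

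Of the mTORC1 and translation control list, 14 of the 25 members in the table rose and 4 fell, with a median log2 FC of 0.76. The mTORC1 inhibitor Ddit4 was at 709.6, 659.5, 619 and 674 CPM in KPC 1 to 4 and 6.2, 13.7, 39.6 and 51.3 CPM in KPC IL6KO 1 to 4 (log2 FC 4.58 ± 0.62 (SE), FDR 5.92e-05), nearly even among KPC mice and uneven among KPC IL6KO mice. The no tumor mice were at 63.6, 64.1 and 179 CPM, above the 4 KPC IL6KO mice. The translation repressor Eif4ebp1 rose (log2 FC 3.59 ± 0.24 (SE), FDR 1.07e-06), as did Sesn1 (3.89), whereas Ddit4l, a relative of Ddit4, fell (log2 FC -2.44 ± 0.38 (SE), FDR 0.000159; -3.06 without KPC 2). Of the cytosolic ribosomal proteins, 39 of the 78 members in the table rose and 0 fell, with a median log2 FC of 0.58; without KPC 3 only 19 were called higher, and without TMM 22. By edgeR at an unadjusted p under 0.05, and by DESeq2, 0 were lower as well. Processed pseudogenes share reads with these genes, so single members are uncertain.

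Activin and myostatin signal through Acvr2 and Acvr1 receptors to SMAD2 and SMAD3 and restrain muscle mass. In this list, 9 of the 31 members in the table rose (29.0%) and 11 fell (35.5%), with a median log2 FC of -0.28. These shares were not far from the 26.4% and 27.3% of all genes, so the genes named next do not stand for the list. Inhbb, a subunit of activin B, was at 32.7, 13.6, 24 and 34.2 CPM in KPC 1 to 4 and 1.02, 0.894, 2.11 and 0.875 CPM in KPC IL6KO 1 to 4 (log2 FC 4.40 ± 0.50 (SE), FDR 1.58e-05). Mstn, which encodes myostatin, rose and was at 465, 164, 106 and 323 CPM in KPC 1 to 4 and 41.7, 33.4, 44.8 and 58.7 CPM in KPC IL6KO 1 to 4 (log2 FC 2.57 ± 0.40 (SE), FDR 0.000162). The type I receptor Acvr1b rose (log2 FC 2.45 ± 0.15 (SE), FDR 6.72e-07). The type II receptor Acvr2b (-0.90), Smad3 (-2.08) and the ligand Gdf11 (-3.46) fell.

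The glucocorticoid list had the highest median of the 37 lists: 21 of the 26 members in the table rose and 2 fell, with a median log2 FC of 2.08. Its median by mouse was 2.61, 1.88, 1.88 and 1.98 in KPC 1 to 4. Fkbp5, a chaperone that glucocorticoids induce, was at 716, 425, 573 and 726 CPM in KPC 1 to 4 and 31.7, 29.7, 65.1 and 66.4 CPM in KPC IL6KO 1 to 4 (log2 FC 3.66 ± 0.35 (SE), FDR 5.58e-06). Klf15 (2.39), the pyruvate dehydrogenase kinase Pdk4 (2.52), Glul (2.53), which makes glutamine, and the cell cycle inhibitor Cdkn1a (5.05) also rose. The receptor Nr3c1 did not pass the test (-0.18). Mt2, Cdkn1a, Ddit4 and Cebpd stand in this list and in others, so the lists are not independent: 31 of the 1202 listed genes in the table belong to more than 1.

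Of the circadian clock genes, 12 of the 21 members in the table rose and 5 fell, with a median log2 FC of 0.74. Arntl (2.19), Clock (1.11), Per1 (1.98) and Cry2 (2.29) rose, and the output factor Dbp was at 3.96, 6.33, 2.72 and 3.37 CPM in KPC 1 to 4 and 156, 158, 103 and 144 CPM in KPC IL6KO 1 to 4, lower in every KPC mouse (log2 FC -5.10 ± 0.27 (SE), FDR 2.82e-07). Nfil3, which represses the sites that DBP activates, rose (log2 FC 2.35 ± 0.44 (SE), FDR 0.000588; 1.61 without KPC 1), while Hlf fell (-2.11). The time of day of tissue collection for each mouse was not used here.

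**Figure D4:**
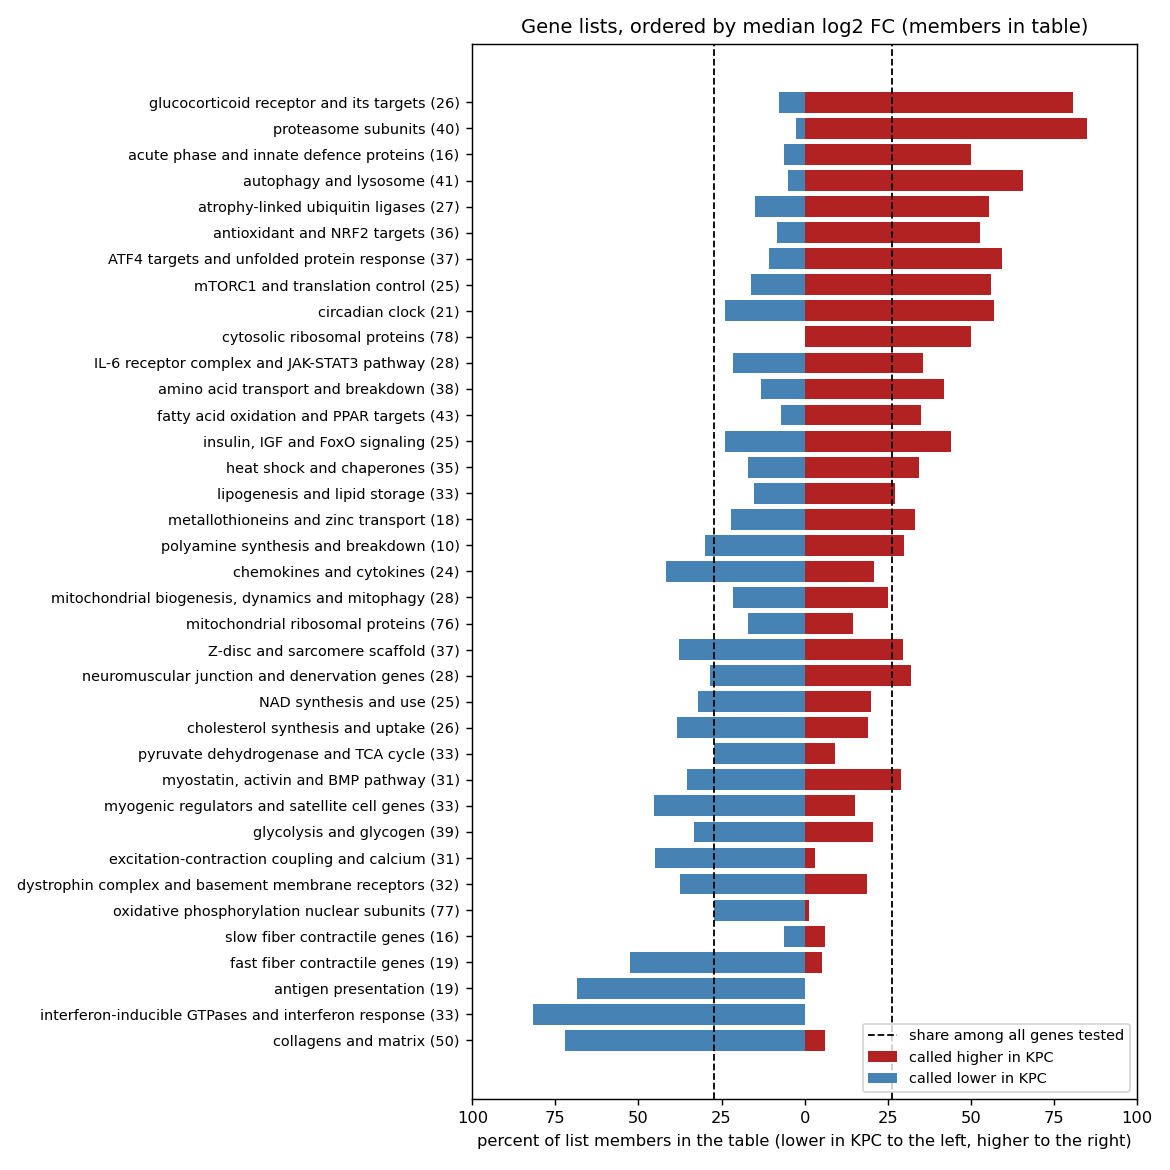
Percent of the members in the table called higher in KPC (red, to the right) and lower (blue, to the left) for 37 gene lists, ordered by median log2 FC, with dashed lines at the shares among all genes, 26.4% and 27.3%. Proteasome subunits and glucocorticoid targets reach furthest to the right, and collagens, interferon genes and antigen presentation furthest to the left.

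Contractile genes build the sarcomere of fast or slow fibers. For fast fiber genes 1 of 19 members rose and 10 fell (median log2 FC -0.87), and for slow fiber genes 1 of 16 members rose and 1 fell (median log2 FC -0.43). The skeletal actin Acta1 was at 22956, 23531, 17694 and 23221 CPM in KPC 1 to 4 and 45350.5, 41145, 41334 and 42840.0 CPM in KPC IL6KO 1 to 4 (log2 FC -0.97 ± 0.13 (SE), FDR 4.98e-05). Casq1, the fast fiber calsequestrin, was at 388, 465, 119 and 414 CPM in KPC 1 to 4 and 4026, 4288, 2535 and 2854 CPM in KPC IL6KO 1 to 4 (log2 FC -3.30 ± 0.37 (SE), FDR 1.4e-05), with KPC 3 lowest. Tpm1 (-1.21), parvalbumin (Pvalb, -1.38), Tnnc2 (-0.90) and Myl1 (-1.40) fell. The fast myosin Myh4 had an FDR of 0.00788 but an FC below 1.5 (log2 FC -0.47). In excitation-contraction coupling 1 of 31 members rose and 14 fell (median log2 FC -0.41). Jph2, which ties the T-tubule to the calcium store, fell (log2 FC -3.07 ± 0.39 (SE), FDR 4.05e-05), as did Sypl2 (log2 FC -3.69 ± 0.35 (SE), FDR 5.21e-06). The release channel Ryr1 did not pass the test (log2 FC 0.15 ± 0.10 (SE), FDR 0.206).

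For Z-disc and sarcomere scaffold genes 11 of 37 members rose (29.7%) and 14 fell (37.8%), against 26.4% and 27.3% of all genes (median log2 FC -0.07). The stress-responsive Ankrd1 (2.21; 1.54 without KPC 3), Ankrd2 (2.69), Flnc (2.65) and Nrap (1.78) rose, and the cardiac actin Actc1 (-3.58) and Ldb3 (-1.31) fell. The intermediate filament desmin (Des) rose (log2 FC 0.68 ± 0.13 (SE), FDR 0.000601). For the dystrophin complex and basement membrane receptors 6 of 32 members rose and 12 fell (median log2 FC -0.42). Dystrophin itself (Dmd) was at 251, 141, 198 and 145 CPM in KPC 1 to 4 and 92, 101, 98.7 and 110.1 CPM in KPC IL6KO 1 to 4, all KPC mice above all KPC IL6KO mice (log2 FC 0.87 ± 0.17 (SE), FDR 0.000889). At the neuromuscular junction 9 of 28 members rose (32.1%) and 8 fell (28.6%), with a median log2 FC of -0.16. These shares were near the 26.4% and 27.3% of all genes, so the genes named next do not stand for the list. Ampd3, which deaminates AMP, was at 649, 209.9, 1046 and 339 CPM in KPC 1 to 4 and 14.9, 14.3, 14.6 and 11.9 CPM in KPC IL6KO 1 to 4 (log2 FC 5.33 ± 0.45 (SE), FDR 2.67e-06). Runx1 (4.10), Musk (2.41) and Gadd45a (3.20; 2.48 without KPC 3), known to rise after denervation, rose too. The acetylcholine receptor subunit Chrna1 did not pass the test (log2 FC 0.28 ± 0.19 (SE), FDR 0.211), and Ache, which breaks acetylcholine down, fell (-2.47).

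Of myogenic regulators and satellite cell genes 5 of 33 members rose and 15 fell (median log2 FC -0.34). Myod1 was at 1.25, 2.64, 4.79 and 2.28 CPM in KPC 1 to 4 and 17.6, 24.9, 25 and 34.3 CPM in KPC IL6KO 1 to 4 (log2 FC -3.22 ± 0.35 (SE), FDR 1.37e-05), and the satellite cell factor Pax7 at 0.601, 0.599, 0.573 and 0.546 CPM in KPC 1 to 4 and 3.01, 3.33, 2.82 and 2.56 CPM in KPC IL6KO 1 to 4 (log2 FC -2.33 ± 0.18 (SE), FDR 1.82e-06). Both were lower in every KPC mouse. Myog, a later factor, rose (1.79), although KPC 4 was below KPC IL6KO 3 and it was not called without KPC 3 (0.82, FDR 0.0731), and Mef2c fell (-2.64).

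For glycolysis and glycogen 8 of 39 members rose and 13 fell (median log2 FC -0.40), for pyruvate dehydrogenase and the TCA cycle 3 of 33 members rose and 9 fell (median log2 FC -0.27), and for nuclear subunits of oxidative phosphorylation 1 of 77 members rose and 21 fell (median log2 FC -0.43). In this order, the shares that fell were 33.3, 27.3 and 27.3%, near the 27.3% of all genes. The shares that rose were 20.5, 9.09 and 1.30%, against 26.4% of all genes. Without TMM the number of oxidative phosphorylation subunits called lower was 35, and without KPC 1 the number of TCA cycle genes called lower was 5. The muscle phosphoglycerate mutase Pgam2 was at 329.8, 469.5, 281 and 387 CPM in KPC 1 to 4 and 2233, 2208, 1672 and 1695 CPM in KPC IL6KO 1 to 4 (log2 FC -2.41 ± 0.17 (SE), FDR 1.25e-06). For fatty acid oxidation and PPAR targets 15 of 43 members rose and 3 fell (median log2 FC 0.43). Pdk4, which turns the cell from glucose to fat, was at 6002, 4554, 5015 and 5304 CPM in KPC 1 to 4 and 1067, 443, 1610.2 and 524 CPM in KPC IL6KO 1 to 4 (log2 FC 2.52 ± 0.39 (SE), FDR 0.000164), and the uncoupling protein Ucp3 at 1007, 580.4, 404 and 623 CPM in KPC 1 to 4 and 229.7, 113, 253 and 142 CPM in KPC IL6KO 1 to 4 (log2 FC 1.83 ± 0.31 (SE), FDR 0.000279). Neither overlapped between the groups. For mitochondrial biogenesis, dynamics and mitophagy 7 of 28 members rose and 6 fell (median log2 FC 0.00), and the coactivator Ppargc1b (-2.57) and the receptor Esrra (-1.61) were among those that fell. For mitochondrial ribosomal proteins 11 of 76 members rose and 13 fell (median log2 FC -0.01).

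For lipogenesis and lipid storage 9 of 33 members rose (27.3%) and 5 fell (15.2%), with a median log2 FC of 0.20. For cholesterol synthesis 5 of 26 members rose (19.2%) and 10 fell (38.5%), with a median log2 FC of -0.22. Over all genes 26.4% rose and 27.3% fell, and the genes named next do not stand for these lists. The lipid droplet protein Plin4 rose (log2 FC 2.43 ± 0.22 (SE), FDR 4.16e-06) and the lipogenic factor Mlxipl fell (log2 FC -1.69 ± 0.16 (SE), FDR 4.86e-06). The 7 adipocyte markers summed to 128 to 1646 CPM in KPC, 188 to 602 CPM in KPC IL6KO and 505 to 2503 CPM in no tumor, and none was called, by edgeR at an unadjusted p under 0.05 (0 genes) or by DESeq2 (0 genes). The part of fat cells in the lipid gene results was not tested. In NAD metabolism 5 of 25 members rose and 8 fell (median log2 FC -0.16). Nmrk2, the muscle nicotinamide riboside kinase (chromosome 10, 81198170 to 81202051, minus strand), was at 1.16, 2.43, 3.03 and 1.9 CPM in KPC 1 to 4 and 332, 203, 140.3 and 392 CPM in KPC IL6KO 1 to 4 and at 120.0, 84.1 and 118 CPM in no tumor, so the 3 groups did not overlap (log2 FC -6.97 ± 0.42 (SE), FDR 6.72e-07). In amino acid transport and breakdown 16 of 38 members rose and 5 fell (median log2 FC 0.46), with the transporter Slc7a5 (2.51) and the lysosomal Slc15a4 (2.67) rising and the AMP deaminase Ampd1 falling (-2.46). In polyamine metabolism 3 of 10 members rose (30.0%) and 3 fell (30.0%), near the shares of all genes (median log2 FC 0.06). Smox, the spermine oxidase, does not stand for the list. It was at 60.4, 70.2, 69.1 and 74.2 CPM in KPC 1 to 4 and 613, 682, 349 and 796 CPM in KPC IL6KO 1 to 4 (log2 FC -3.16 ± 0.23 (SE), FDR 1.34e-06).

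Of ATF4 targets and unfolded protein response genes 22 of 37 members rose and 4 fell (median log2 FC 0.88), and of antioxidant and NRF2 targets 19 of 36 members rose and 3 fell (median log2 FC 0.88). Atf4 itself was at 936, 574, 912 and 721 CPM in KPC 1 to 4 and 195, 198, 259 and 219 CPM in KPC IL6KO 1 to 4 (log2 FC 1.85 ± 0.16 (SE), FDR 3.12e-06). The small Maf factor Maff rose (log2 FC 4.47 ± 0.35 (SE), FDR 1.68e-06), as did Hmox1 (1.84), which degrades heme, and Gclm (1.89), for glutathione. Of heat shock genes 12 of 35 members rose and 6 fell (median log2 FC 0.31), with the small heat shock proteins split: Hspb1 (2.71) and Hspb7 (2.70) rose and Hspb2 (-1.41) and Hspb3 (-1.59) fell.

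Collagens and other matrix genes are made mainly by fibroblasts. Of the list, 3 of the 50 members in the table rose and 36 fell, with a median log2 FC of -1.59. Col3a1, a fibrillar collagen, was at 12.8, 12.1, 4.96 and 4.67 CPM in KPC 1 to 4 and 359, 268, 207 and 189 CPM in KPC IL6KO 1 to 4 (log2 FC -4.89 ± 0.38 (SE), FDR 1.69e-06), and Col1a1 at 10.3, 6.88, 4.19 and 3.48 CPM in KPC 1 to 4 and 174, 181, 86 and 90.8 CPM in KPC IL6KO 1 to 4 (log2 FC -4.42 ± 0.38 (SE), FDR 3.05e-06). The no tumor mice were higher still, at 396, 383 and 445 CPM for Col3a1. The matrix protease Adamts2 rose (log2 FC 2.99 ± 0.52 (SE), FDR 0.000334; 2.11 without KPC 3), with Thbs1 (2.06) and the cross-linking enzyme Lox (1.70). The 9 fibroblast markers, 3 of them collagens of this list, summed to 183 to 313 CPM in KPC, 691 to 1089.7 CPM in KPC IL6KO and 1306 to 1461 CPM in no tumor, with 8 called lower and 0 higher (0 at an unadjusted p under 0.05 in edgeR and 0 by DESeq2), and the 7 tendon cell markers summed to 21.1 to 88.8 CPM in KPC, 62.8 to 235 CPM in KPC IL6KO and 192 to 247 CPM in no tumor, with 4 called lower. In bulk tissue, fewer cells of a type and less RNA per cell cannot be told apart. The part of fibroblast and tendon cell number in the matrix result was not tested.

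Interferon-inducible GTPases defend cells against intracellular microbes. Of the interferon list 0 of 33 members rose and 27 fell (median log2 FC -1.59), and of antigen presentation genes 0 of 19 members rose and 13 fell (median log2 FC -1.52). At an unadjusted p under 0.05 in edgeR, 0 members of the interferon list and 1 of the antigen presentation list were higher, and DESeq2 called 0 of either higher. The guanylate-binding protein Gbp4 was at 1.85, 2.55, 1.46 and 1.13 CPM in KPC 1 to 4 and 9, 6.73, 7.76 and 46 CPM in KPC IL6KO 1 to 4 (log2 FC -3.31 ± 0.64 (SE), FDR 0.000724; -2.16 without KPC IL6KO 4), where KPC IL6KO 4 was high. Gm4841, an interferon-inducible GTPase, was at or under 3 counts in all 4 KPC libraries and at 8.31, 3.54, 3.43 and 6.45 CPM in KPC IL6KO, which makes it at least 107-fold lower against a floor of 3 counts per library. The interferon gamma receptor subunit Ifngr2 was at 25.6, 32, 25.5 and 22.1 CPM in KPC 1 to 4 and 75.7, 75.3, 74.1 and 69.1 CPM in KPC IL6KO 1 to 4 (log2 FC -1.48 ± 0.12 (SE), FDR 1.82e-06), and the class II regulator Ciita fell (log2 FC -2.71 ± 0.31 (SE), FDR 1.65e-05). The class I heavy chain H2-K1 did not pass the test (log2 FC -0.06 ± 0.22 (SE), FDR 0.833). Near-identical members such as Tgtp1 and Tgtp2 can share reads. The interferon list median by mouse was -2.13, -1.14, -2.13 and -2.01 in KPC 1 to 4. Its summed CPM was 366, 299, 300 and 547 in KPC IL6KO 1 to 4. Without KPC IL6KO 4, Gbp6, Irgm1 and Nlrc5 of this list and Tap1 and H2-T23 of antigen presentation were not called. Without that mouse Tgtp1 also moved from -3.69 to -2.21 and Iigp1 from -2.79 to -1.96. Without KPC 2, the falls of Cxcl9, Ifit3, Irf7 and Oasl2 were larger. Of chemokines and cytokines 5 of 24 members rose and 10 fell (median log2 FC 0.04): Cxcl13 rose (log2 FC 4.15 ± 0.72 (SE), FDR 0.000346; 3.37 without KPC 1) and Cxcl12 fell (log2 FC -1.26 ± 0.15 (SE), FDR 2.71e-05).

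**Figure D5:**
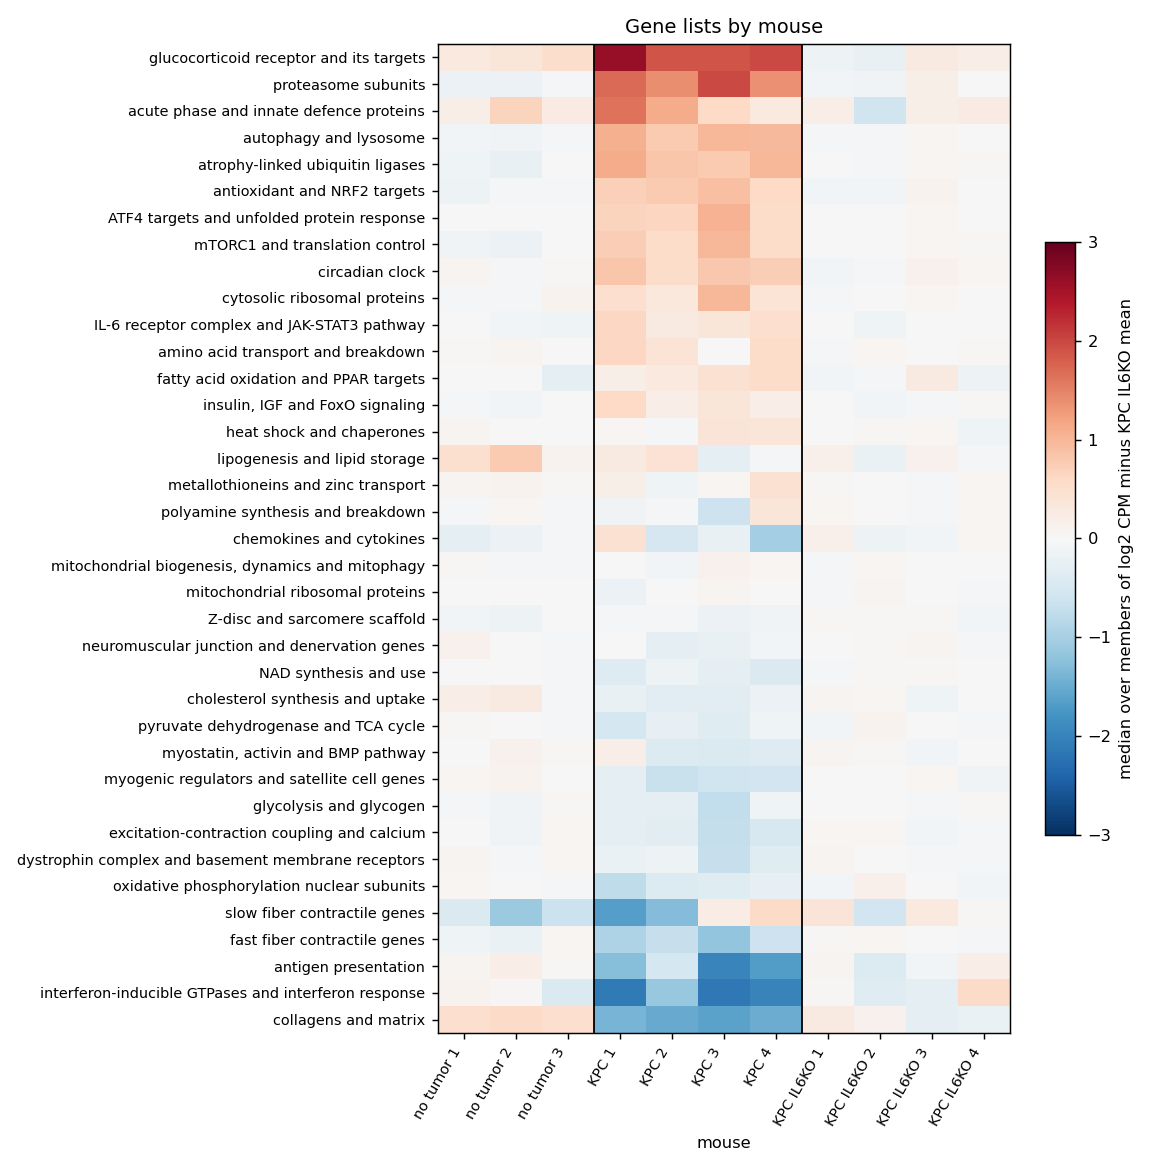
Median over list members of log2 CPM minus the KPC IL6KO mean, for 37 lists (rows) in the 3 no tumor, 4 KPC and 4 KPC IL6KO mice (columns); red is higher and blue lower. The proteasome list reads 1.70, 1.39, 1.99 and 1.37 in KPC 1 to 4, and slow fiber genes change sign among the KPC mice (-1.66, -1.29, 0.23 and 0.57).

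Markers of other cells moved unevenly. The 11 macrophage markers summed to 56.5 to 223 CPM in KPC, 132 to 204 CPM in KPC IL6KO and 127 to 185 CPM in no tumor, with Cd68 the 1 to rise, at 26.5, 4.16, 79.5 and 8.58 CPM in KPC 1 to 4 and 3.47, 2.52, 2.64 and 3.72 CPM in KPC IL6KO 1 to 4 (log2 FC 3.26 ± 0.73 (SE), FDR 0.00183; 2.08 without KPC 3), and Adgre1 (-1.75), Csf1r (-0.92) and Mrc1 (-0.91) falling. The calls of Csf1r and Mrc1 were at the edge. With each of the 11 libraries left out in turn, Csf1r was not called in 7 cases (log2 FC -0.99 to -0.66, FDR 0.0504 to 0.103) and Mrc1 in 6 (-0.90 to -0.66, FDR 0.0546 to 0.0964). Of 9 endothelial markers 1 rose and 2 fell, and they summed to 297 to 499 CPM in KPC, 341 to 427 CPM in KPC IL6KO and 282 to 388 CPM in no tumor. Of 6 smooth muscle and pericyte markers 3 fell, and they summed to 77.3 to 128 CPM in KPC, 154 to 182 CPM in KPC IL6KO and 154 to 221 CPM in no tumor. The 6 Schwann cell markers summed to 34.6 to 88.2 CPM in KPC, 64.3 to 84.9 CPM in KPC IL6KO and 96.4 to 179.9 CPM in no tumor, with 0 called by edgeR, 0 at an unadjusted p under 0.05, and 1 called higher by DESeq2. The erythroid marker Alas2, the 1 of 5 in the table, rose (1.11). None of the 8 T and B cell markers was in the table. The part of these cells in the immune gene results was not tested.

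Among well expressed genes with no overlap between the groups, the other leading rises were Doc2b, a calcium sensor of vesicle fusion, with 70.8, 29.3, 80.3 and 93 CPM in KPC 1 to 4 and 0.433, 0.316, 0.913 and 1.2 CPM in KPC IL6KO 1 to 4 (log2 FC 6.56 ± 0.58 (SE), FDR 3.62e-06), Fam65c (6.30), 8430408G22Rik (5.15) and the keratin Krt80. Krt80 rested on KPC 3, at 12.8, 3.58, 153 and 5.53 CPM in KPC 1 to 4, and its log2 FC was 5.08 with that mouse and 2.50 without it. The other leading falls were Lrrc38, a subunit of calcium-activated potassium channels, with 0.524, 0.787, 0.409 and 0.414 CPM in KPC 1 to 4 and 41.7, 59.3, 30.4 and 38.5 CPM in KPC IL6KO 1 to 4 (log2 FC -6.31 ± 0.27 (SE), FDR 1.7e-07), Nrep (-6.18), Plcd4 (-5.97), the potassium channel Kcng4 (-5.80), the muscle protein Ky (-5.77), F830016B08Rik (-5.65), Tmem233 (-5.65), Cited4 (-5.46) and the myosin-binding protein Mybph (-5.44). All of these were chosen for groups that do not overlap. Of the called genes with the highest CPM, Pde4dip rose with a log2 FC of 1.00.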

How the data were processed

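RNA of quadriceps was analysed in 11 mice: 4 KPC, 4 KPC IL6KO and 3 no tumor. The authors' methods state that a further no tumor muscle was dropped as an outlier. Per the labels, libraries were strand-specific and paired-end, made with the TruSeq RNA Access kit. The study's methods name a different kit, so the kit is uncertain. The authors aligned reads to mm10 with STAR and deposited whole-number counts per gene from featureCounts 1.5.1; the submitters' notes also name FastQC, Subread and edgeR 3.12.1. Whether counting used strand is not given in the sources used here. No low-count filter was needed, since all 12831 deposited genes passed filterByExpr. The table may thus have been filtered by expression before deposit, and genes low in every group may have no row. Counts were scaled by TMM and tested with edgeR 4.0.16 (R 4.3.3), quasi-likelihood, with the 3 groups in 1 fit without a block; the common dispersion was 0.0517, a biological coefficient of variation of 22.7%. Calls needed an FDR no higher than 0.05 together with a 1.5-fold change. Library medians used log2(CPM + 0.05). The floor of 3 counts covers counting error only. The edgeR test gives no SE, so the SE printed here was derived from its result. It is the absolute log2 FC divided by the square root of the quasi-likelihood F statistic. It thus includes the spread between mice, and is approximate. The labels number the muscles within a group, each was taken as 1 mouse, and the numbers do not pair mice across groups. Scripts were tested on simulated data. Alternatives were DESeq2 1.42.0, the likelihood ratio test, another quasi-likelihood setting, RLE and total count scaling, low-count filters, the 2 tumor groups alone, a replicate block and leaving out each library.

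Groups came from the sample titles. The 37 gene lists, 13 marker lists and the comparison itself were chosen with earlier results of these data known. Genes were named by rule: the 10 called genes with the largest and the 10 with the smallest log2 FC among genes averaging 1 or more on the log2 CPM scale whose groups did not overlap, the 5 most abundant called in each direction, the extreme called members and the most abundant member of each list, and genes of the IL-6 and atrophy pathways; other list members were named to read a list's count. A few genes that the rule or the lists hold are not reported here. Gene positions are from GENCODE vM21 and promoters from RefSeq (GRCm38.p6), with a promoter found for 107 of the 130 named genes. No column of the table lacked a sample. Adipose tissue samples were not used.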

Additional observations from a re-analysis of the deposited data

Results flagged for a closer look

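Each of the 260 groups of 4 mice of the 130 named genes was checked for a mouse far from the other 3 (Dixon ratio above its 95% critical value), and 20 were found, where chance gives about 1 in 20 groups. In the KPC group these were Krt80 in KPC 3 at 152.8 CPM (others 3.58 to 12.8), Acta1 in KPC 3 at 17690 CPM (others 22960 to 23530), Ddit4l in KPC 2 at 113.2 CPM (others 27.3 to 41.7), Tef in KPC 1 at 689.5 CPM (others 489.1 to 517.4), Casq2 in KPC 1 at 3.157 CPM (others 12.3 to 13.8), Hspb7 in KPC 4 at 2645 CPM (others 1269 to 1481), Nampt in KPC 4 at 232.5 CPM (others 206.4 to 210.2), Ciita in KPC 2 at 0.3937 CPM (others 0.151 to 0.18) and Fbxo32 in KPC 1 at 7739 CPM (others 5144 to 5577). In the KPC IL6KO group they were Krt80 in KPC IL6KO 2 at 1.157 CPM, Mybph in KPC IL6KO 1 at 287.2 CPM, Nrap in KPC IL6KO 3 at 2081 CPM, Socs1 in KPC IL6KO 1 at 5.219 CPM, Stat5b in KPC IL6KO 3 at 513.8 CPM, Ulk2 in KPC IL6KO 4 at 164.1 CPM, Inhbb in KPC IL6KO 3 at 2.108 CPM, Acot1 in KPC IL6KO 3 at 7.882 CPM, Irgm1 in KPC IL6KO 4 at 24.69 CPM, H2-K1 in KPC IL6KO 2 at 74.74 CPM and Socs3 in KPC IL6KO 1 at 12.78 CPM. KPC IL6KO 1 was the high mouse for both suppressors of cytokine signaling, Socs1 and Socs3.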

How the results depend on the processing

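Over 20 alternatives the number of genes called higher ran from 2842 to 3571 and lower from 3315 to 3984, within 1.5 times of 3381 and 3498, and no called gene was called the other way. The low-count filter alternatives removed no gene, so they repeat the main fit and do not test it. Leaving out 1 library gave 3227 to 3571 higher and 3315 to 3681 lower. DESeq2 gave 3513 and 3465. The replicate block gave 3297 and 3561; same-numbered mice did not deviate together (correlations 0.077, -0.115, 0.183 and -0.151), and only mouse 3 of each group correlated best with its own number. Of the 130 named genes, 116 kept their call and sign in all alternatives that gave an adjusted p; DESeq2 gave none for Socs1. The sign changed for genes that were not called. C3 was 0.005432 with DESeq2, 0.00562 with RLE, and Slc2a4 was -0.02927 and Aldoa -0.06424 with total counts. With 1 library left out, C3 ran from -0.3462 to 0.2719, Slc2a4 from -0.1133 to 0.3024, Mybpc1 from -0.4164 to 0.08916, H2-K1 from -0.196 to 0.05606 and Socs3 from -0.04239 to 0.8795. Calls at the edge were lost for Sln, Rpl13a, Des, Nampt, Irgm1 and H2-T23 and gained for Stat5b, Myh4 and Socs3. The cause was not tested.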
